A study of Homo sapiens with 9 samples.

Results

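A set of 151 genes was higher in MDA-MB-231 cells kept in viscous medium than in baseline medium, and higher still in viscous medium when the ion channel TRPV4 had been knocked down. MDA-MB-231 is an established human breast cancer cell line with mesenchymal features. The 9 samples were poly(A) RNA-seq libraries in 3 groups of 3, all harvested at day 6. SC cells, which carried a non-targeting scramble short hairpin RNA, were held at 0.77 cP or at 8 cP, and shTRPV4 cells, which carried a hairpin against *TRPV4*, were held at 8 cP. The knockdown was compared at 8 cP alone, with no shTRPV4 group at 0.77 cP. Both hairpins were delivered by lentivirus and kept under puromycin in the study's methods, so each line was a transduced population and not an unmanipulated culture. Media were thickened with methylcellulose, an inert polymer.

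The genes were chosen by a rule on measured values. CPM is the count of a gene divided by the total of its sample and multiplied by 1000000. A gene was kept if its mean was at least 1 CPM in shTRPV4 cells, if the SC mean at 8 cP was at least 1.2 times that at 0.77 cP, if the shTRPV4 mean was at least 1.2 times the SC mean at 8 cP, and if the replicates did not overlap at either step. Of 60664 genes listed, 13048 reached the minimum, 737 of these met the viscosity step, 1190 met the knockdown step, and 151 met both, which is 1.16% of the genes at or above the minimum. The same rule turned around, for genes lower at both steps, gave 250 genes. Because both differences were used to choose the genes, their levels and ratios below are a description and were not tested. The 2 steps also share the SC samples at 8 cP.

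Making ribosomes is one of the largest costs of a growing cell. RNA polymerase I copies the ribosomal DNA in the nucleolus, a large set of assembly factors cuts, modifies and folds the transcript, and ribosomal proteins are added before the subunits are exported. The work depends on a supply of amino acids, brought in by transporters such as the SLC7A5 and SLC3A2 pair, and of nucleotides, made by enzymes such as CAD and PPAT. TRPV4, the target of the knockdown, is a calcium-permeable channel of the cell membrane that responds to osmotic and mechanical stimuli.

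Sample totals ran from 64571681 to 103518036 counts. *TRPV4* itself was low, with 40, 28 and 54 counts in SC cells at 0.77 cP, 64, 45 and 24 at 8 cP, and 7, 1 and 13 in shTRPV4 cells, so the knockdown samples lay below all others. The mesenchymal marker *VIM* lay between 768 and 1056 CPM, whereas the epithelial cadherin *CDH1* did not exceed 0.133 CPM and the oestrogen receptor *ESR1* did not exceed 0.0386 CPM. *SPARC*, listed with the mesenchymal markers, lay between 0.612 and 1.62 CPM. Of the genes listed as low or at 0 in this line, *EPCAM*, an epithelial marker, lay between 17.2 and 19.2 CPM. *GATA3* lay between 11.8 and 16.4 CPM and *ERBB2* between 89.0 and 96.4 CPM, so the list held exceptions. No 2 samples of a group agreed within sampling noise. The labels do not say whether the samples were separate cultures, so p-values measure the spread between these samples, which may be technical.

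Summed over the 151 genes, the level was 3915, 3963 and 4432 CPM in SC cells at 0.77 cP, 5121, 5032 and 5587 CPM at 8 cP, and 7385, 6712 and 6526 CPM in shTRPV4 cells. The groups do not overlap, as the rule required of each gene. The median ratio was 1.28 at the viscosity step, 1.31 at the knockdown step and 1.71 from end to end, against 1.01, 1.02 and 1.03 over the 13048 genes at or above the minimum. The knockdown step was the larger ratio in 88 genes and the viscosity step in 63. From end to end, the ratio was at least 2 in 33 genes. The levels spanned a wide range, from 14 genes with at least 100 CPM in shTRPV4 cells to 9 genes under 2 CPM.

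**Figure D1:**
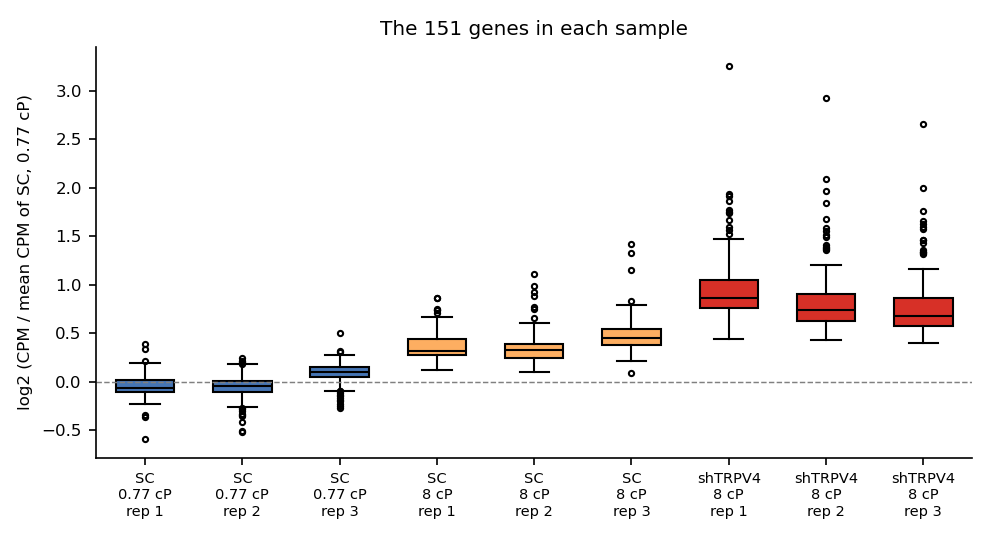
Box plots of the log2 ratio of CPM to the mean of SC cells at 0.77 cP, over the 151 selected genes, for each of the 9 samples (box, quartiles; line, median; whiskers, 1.5 times the quartile range; circles, genes beyond). The sample medians lie between -0.06 and 0.10 in SC cells at 0.77 cP, between 0.32 and 0.45 at 8 cP, and between 0.68 and 0.86 in shTRPV4 cells.

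In the edgeR fit over all genes, 126 of the 151 were called higher at the viscosity step, where 9.57% of the 18264 genes tested were called higher and 9.69% lower. At the knockdown step 130 of the 151 were called higher, against 9.02% of all genes tested called higher and 11.0% lower. Both steps were called in 114 of the genes, against 2.06% of all genes tested. All 151 genes passed the filter on low counts. The rule used these same contrasts, so the counts describe the choice and nothing is read from them. The 9 genes called at neither step were *SCLY*, *GCSH*, *AK5*, *EMC3-AS1*, *ITGBL1*, *PLPP6*, *CCNT2-AS1*, *EEF1AKMT4* and ENSG00000287156, named after their values were seen. Their differences met the ratio rule without passing the test. A further 12 genes were called at the viscosity step alone and 16 at the knockdown step alone. Of genes described below, *SLC38A5*, *SERPINB7* and *PPARGC1B* were among those not called at the viscosity step. *LEF1*, *AUNIP* and *DDX47* were among those not called at the knockdown step.

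**Figure D2:**
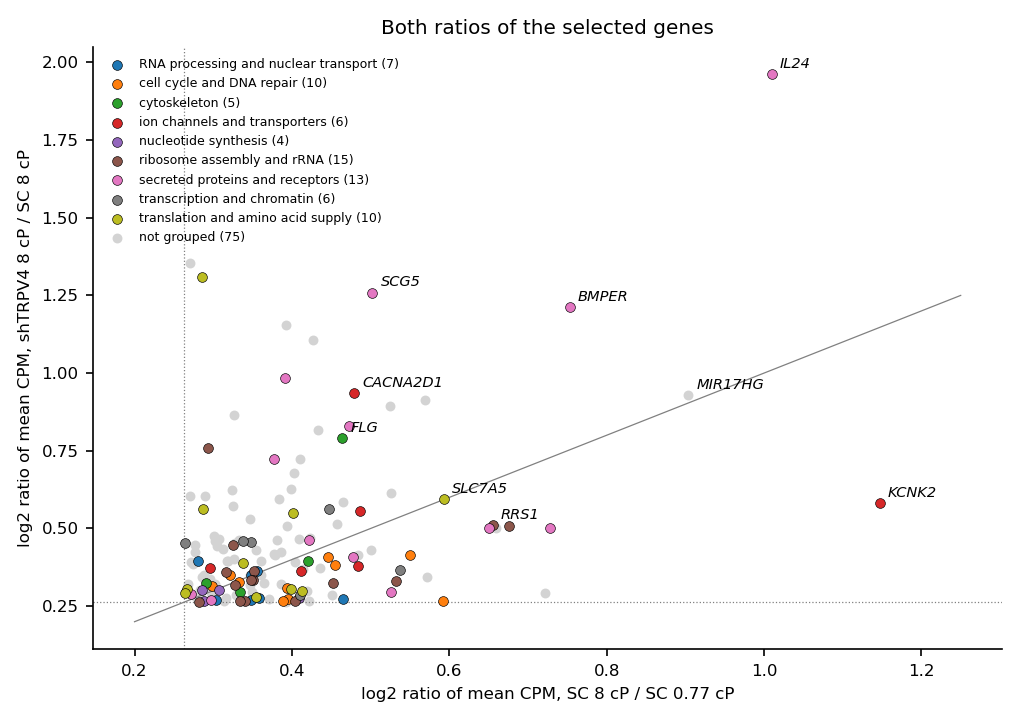
The log2 ratio of mean CPM at the viscosity step (horizontal) against that at the knockdown step (vertical) for the 151 genes, coloured by role. Dotted lines mark the ratio of 1.2 that the rule asked for, and genes above the grey diagonal (88 of 151) had the larger ratio at the knockdown step. *IL24* is highest at the knockdown step and *KCNK2* at the viscosity step.

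Roles were assigned to 76 of the genes from general knowledge after the members were known, and 75 were left ungrouped. The widest group was the machinery that builds ribosomes, with 15 genes whose ratios from end to end were 1.46 to 2.27. The top of this range was *DDX47*, which had low group means of 0.568, 0.907 and 1.29 CPM. It was not called at the knockdown step (adjusted p = 0.079 by edgeR). *RRS1*, an assembly factor of the large subunit, was at 13.7, 13.8 and 14.8 CPM in SC cells at 0.77 cP, at 21.6, 21.3 and 23.7 CPM at 8 cP, and at 35.4, 28.7 and 30.8 CPM in shTRPV4 cells, an overall ratio of 2.24. Its ratios were 1.57 and 1.42, and the rule required that the 3 groups not overlap.

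*POLR1B* encodes the second largest subunit of RNA polymerase I. It was at 33.5, 34.4 and 39.6 CPM, then 43.1, 43.4 and 48.2 CPM, then 66.3, 60.1 and 57.2 CPM, in the same group order. *UTP20*, a component of the small-subunit processome, was at 39.0, 38.4 and 45.9 CPM, then 53.9, 49.7 and 53.8 CPM, then 77.8, 65.1 and 59.7 CPM. The steps of *UTP20* were near equal at 1.28 and 1.29.

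*RRP12*, which takes part in subunit maturation and export, had means of 49.7 ± 4.43, 63.3 ± 5.71 and 79.9 ± 9.01 CPM (SD, n = 3). *DKC1*, the pseudouridine synthase of box H/ACA particles and a telomerase component, was the most abundant of the group at 123 ± 10.5, 156 ± 8.64 and 187 ± 7.43 CPM (SD, n = 3). *CCDC86*, a nucleolar protein, had the largest knockdown ratio of the group, 1.69, beside 1.23 at the viscosity step. The viscosity ratio was the larger in 11 of the 15 genes. The other members were *NIP7*, *MAK16*, *PAK1IP1*, *LSG1*, *RRP15*, *URB2*, *HEATR1*, *DDX31* and *DDX47*. Genes for the RNase P and MRP proteins RPP25 and RPP40, the pseudouridine synthase PUS7, and the nuclear transport receptors IPO5 and XPO5 stood beside them, with overall ratios of 1.49 to 1.67 in a group of 7. *IPO5* was at 188, 196 and 213 CPM, then 245, 247 and 271 CPM, then 353, 324 and 305 CPM.

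A list of 35 ribosome biogenesis genes held 6 of the members (*RRS1*, *POLR1B*, *UTP20*, *RRP12*, *NIP7* and *DKC1*), where members were 0.827% of all genes tested. Many gene lists were scored. This one held the largest share of members (17.1%), and most lists held none. Among the other 29 genes of that list, which the rule had not selected, 14 were called higher at the viscosity step, with a median log2 difference of 0.153. At the knockdown step 14 of the 29 were called higher and 2 lower, with a median of 0.167. Over all genes tested the medians were -0.0065 and 0.00065. The shares of all genes called were 9.57% higher at the viscosity step, and 9.02% higher and 11.0% lower at the knockdown step. The list was drawn up with results of these data known. *DDX21*, a nucleolar RNA helicase, came nearest to the members, with a log2 difference of 0.24 ± 0.068 (SE) at the viscosity step and 0.53 ± 0.068 at the knockdown step. *RRP1B* and *UTP18* were called higher at the viscosity step and lower at the knockdown step, where their log2 differences were -0.24 and -0.16. *FBL*, the methyltransferase of box C/D particles, had log2 differences of -0.02 and 0.01, with adjusted p = 0.777 and 0.927 by edgeR.

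These list counts leaned on single libraries. At the viscosity step the 14 calls became 1 without SC replicate 1 at 0.77 cP, 3 without SC replicate 2 at 0.77 cP, 1 without SC replicate 3 at 8 cP, and 9 without SC replicate 2 at 8 cP or shTRPV4 replicate 2. At the knockdown step the 14 calls became 7 or 8 without SC replicate 1 or 2 at 8 cP. The 2 genes called lower there became 1 or 0 under 5 of the 9 possible omissions of a single sample. *MYC*, a transcription factor known to raise ribosome biogenesis genes, was at 424 to 439 CPM in SC cells at 0.77 cP, 189 to 194 CPM at 8 cP and 166 to 192 CPM in shTRPV4 cells. It was called lower at the viscosity step (log2 difference -1.18 ± 0.053, SE), and at the knockdown step the groups overlapped (-0.12 ± 0.053, adjusted p = 0.125 by edgeR). Its part in the result was not tested.

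**Figure D3:**
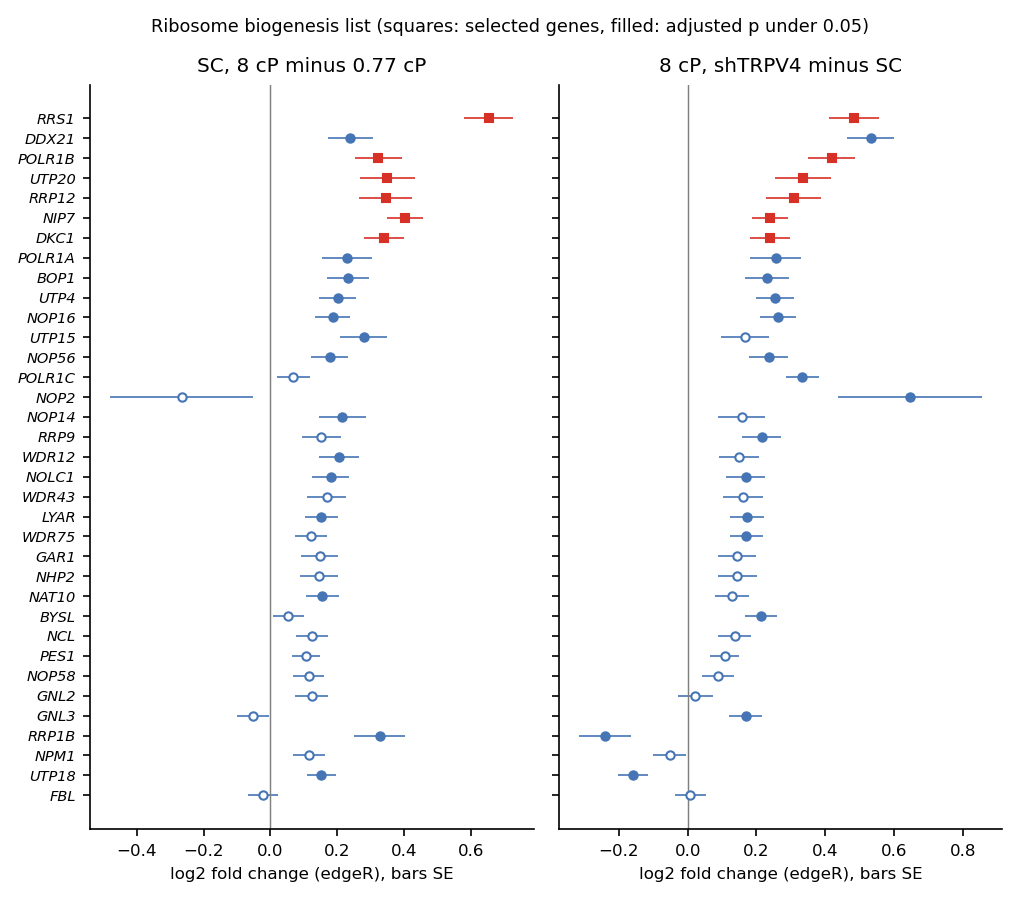
The edgeR log2 fold change of the 35 genes of the ribosome biogenesis list at the viscosity step (left) and the knockdown step (right), with bars for the SE. Squares mark the 6 selected genes and circles the other 29, and filled symbols have an adjusted p under 0.05. The points lie to the right of 0 for 32 of 35 genes in each panel.

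Amino acid supply held the most abundant member. *SLC7A5* encodes the light chain of the LAT1 transporter for large neutral amino acids, and its levels were 248, 249 and 309.8 CPM in SC cells at 0.77 cP, 390.3, 376 and 451 CPM at 8 cP, and 697, 570.2 and 570.2 CPM in shTRPV4 cells. The ratios were 1.51 at each step, and the groups did not overlap, as the rule required. It was also the highest member per length, at 129 CPM per kilobase of annotated exon in shTRPV4 cells, followed by its partner *SLC3A2* at 53.4. *SLC3A2*, the heavy chain that carries LAT1 to the membrane, had the smaller overall ratio of the pair (1.49), at 216, 225 and 248 CPM, then 269, 261 and 299 CPM, then 346, 345 and 334 CPM. *SLC38A5*, a glutamine transporter, had its larger ratio at the knockdown step (1.22 and 2.48) and was low throughout, at 1.62 to 2.13 CPM in shTRPV4 cells. *NARS1*, the asparaginyl-tRNA synthetase, had ratios of 1.22 and 1.48, and *AIMP2*, a scaffold of the multi-synthetase complex, 1.26 and 1.31. In a list of 30 genes of ATF4 and amino acid supply, 26 genes other than *SLC7A5* and *SLC3A2* were tested, and of these 5 were called higher and 4 lower at the viscosity step, and 1 higher and 5 lower at the knockdown step. The shares over all genes tested were 9.57% higher and 9.69% lower, then 9.02% higher and 11.0% lower. The 5 called higher became 1 to 3 without SC replicate 1 or 2 at 0.77 cP or SC replicate 3 at 8 cP, and the 5 called lower became 3 without SC replicate 1 or 2 at 8 cP or shTRPV4 replicate 1. The nucleotide synthesis enzymes *CAD*, *PPAT* and *PFAS* had overall ratios of 1.52, 1.47 and 1.505.

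Genes of the cell cycle and of DNA repair made up 10 members, with overall ratios of 1.53 to 1.95, and the viscosity step was the larger in 8 of them. *SKP2*, the ubiquitin ligase subunit that marks p27 for degradation, was at 25.9, 23.9 and 28.0 CPM, then 37.8, 35.3 and 40.8 CPM, then 53.8, 51.6 and 46.3 CPM. *CCNE1*, cyclin E1 of the G1 to S transition, was at 13.3, 12.8 and 15.7 CPM, then 18.7, 18.2 and 20.3 CPM, then 26.3, 24.0 and 24.4 CPM. *AUNIP*, which takes part in DNA end resection, had most of its change at the viscosity step, with ratios of 1.51 and 1.203. The checkpoint and repair genes *ATR*, *BRCA1*, *TIPIN*, *RBBP8*, *FIGNL1* and *TONSL* lay between 1.53 and 1.81 overall. *CCNE1* was the only member in a list of 43 genes of DNA replication and S phase. Of the other 42 genes, 30 were called higher at the viscosity step and 7 at the knockdown step. Of all genes tested, 9.57% and 9.02% were called higher at these steps. The 30 became 19 without SC replicate 1 at 0.77 cP or SC replicate 3 at 8 cP, and the 7 became 3 or 4 without SC replicate 1 or 2 at 8 cP or shTRPV4 replicate 1 or 2. The median log2 difference was 0.238 at the viscosity step and 0.0638 at the knockdown step. A list of 41 mitosis and spindle genes held no member. Of these, 22 were called higher at the viscosity step, and 1 higher and 5 lower at the knockdown step. A list of G1 cyclins, CDK inhibitors and *MYC* had 24 genes tested, including *SKP2*. Here 4 were called higher and 6 lower at the viscosity step, then 3 higher and 9 lower. Over all genes tested, 9.69% and 11.0% were called lower at these steps. Neither list was rerun with samples left out.

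Of the 8 members with the highest overall ratios among those with at least 5 CPM in shTRPV4 cells, *BMPER*, *SCG5*, *VIPR1* and *CACNA2D1* encode secreted proteins, a receptor and a channel subunit, and none belongs to the ribosome group. *BMPER*, a secreted modulator of BMP signalling, was at 3.03, 4.01 and 4.50 CPM in SC cells at 0.77 cP, at 6.40, 6.45 and 6.61 CPM at 8 cP, and at 14.7, 15.0 and 15.4 CPM in shTRPV4 cells, an overall ratio of 3.90. *SCG5*, a chaperone of prohormone convertase 2, was at 4.29, 4.26 and 3.71 CPM, then 5.17, 5.91 and 6.28 CPM, then 13.02, 14.7 and 13.8 CPM. In both genes most of the difference came at the knockdown step, with ratios of 2.32 and 2.39.

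*VIPR1*, a receptor for vasoactive intestinal peptide, went the other way, with ratios of 1.66 and 1.42. Its levels were 18.5, 16.9 and 19.0 CPM, then 30.3, 28.6 and 31.4 CPM, then 49.4, 40.7 and 37.8 CPM. *IL24*, a cytokine of the IL-10 family, had the highest overall ratio (7.84) from very low levels, at 0.348, 0.480 and 0.744 CPM, then 0.856, 0.996 and 1.31 CPM, then 5.02, 3.997 and 3.30 CPM. *SERPINB7*, a serine protease inhibitor, reached 2.71 to 3.48 CPM in shTRPV4 cells from 1.13 to 1.23 CPM in SC cells at 0.77 cP. *ADGRF5* and *ADGRF1*, adhesion G protein-coupled receptors, had means of 313 and 45.7 CPM in shTRPV4 cells, and *ADGRF1* had the larger overall ratio, 2.22 beside 1.48.

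**Figure D4:**
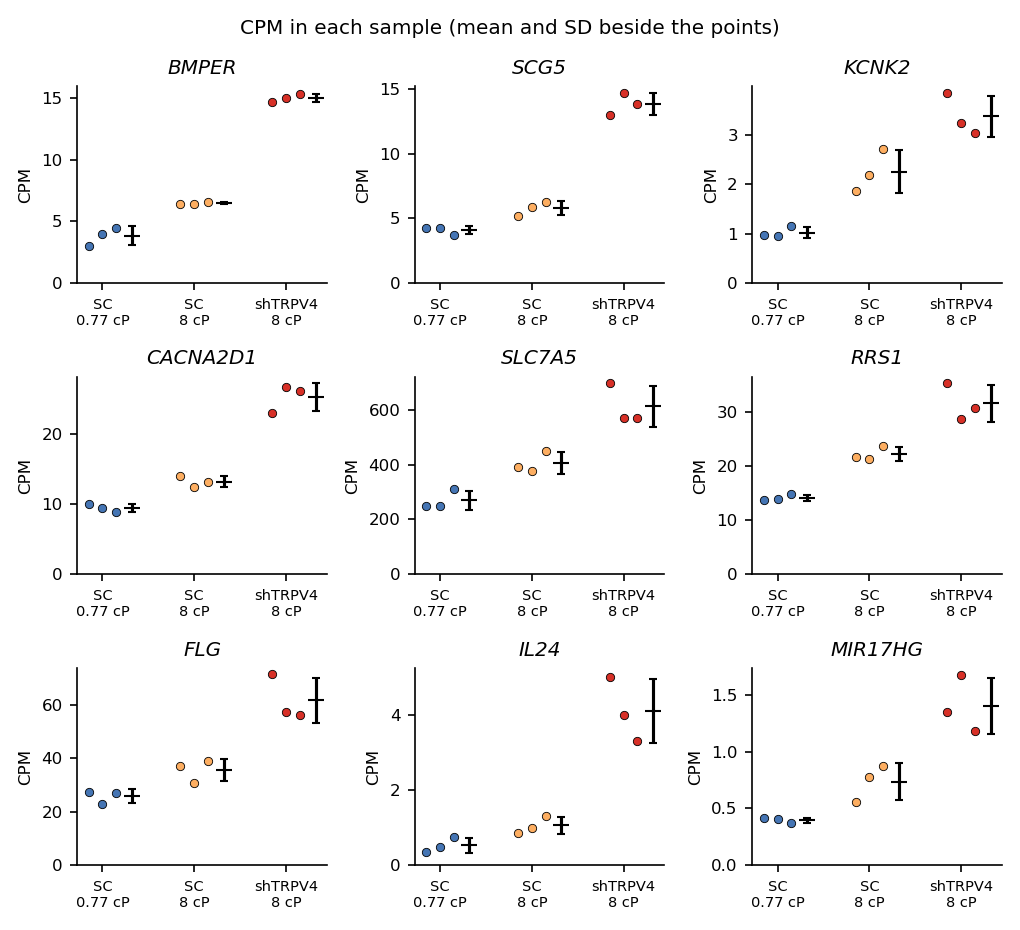
CPM of 9 selected genes in each sample (points) with the mean and SD of the 3 replicates beside them, on linear axes that start at 0. In every panel the 3 groups are stacked without overlap, as the rule required of each gene. Between group means in CPM, the gap is wider at the knockdown step in every panel except that of *KCNK2*.

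Ion channel genes were also among the members. *KCNK2* encodes TREK-1, a potassium channel opened by membrane stretch. It was at 0.969, 0.945 and 1.15 CPM, then 1.86, 2.20 and 2.72 CPM, then 3.85, 3.26 and 3.04 CPM, and its viscosity ratio of 2.21 was the highest of all members. *CACNA2D1*, an auxiliary subunit of voltage-gated calcium channels, was at 10.1, 9.52 and 8.88 CPM, then 14.1, 12.4 and 13.2 CPM, then 23.1, 26.7 and 26.1 CPM, with ratios of 1.39 and 1.91. Among 39 tested genes that were not members in a list of ion channels and volume transporters, 5 were called higher and 13 lower at the viscosity step, and 4 higher and 8 lower at the knockdown step. Over all genes tested, 9.57% were called higher and 9.69% lower at the viscosity step, and 9.02% and 11.0% at the knockdown step. Leaving out single samples brought the 5 to as few as 3 (SC replicate 3 at 8 cP), the 13 to 6 to 8 (SC replicate 1 or 2 at 0.77 cP or any SC replicate at 8 cP), and the 4 to 1 or 2 (SC replicate 2 at 8 cP, shTRPV4 replicate 1 or 2). One of them, the channel kinase *TRPM7*, was called higher at both, with log2 differences of 0.24 and 0.16.

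*FLG*, the barrier protein filaggrin, was at 27.5, 22.9 and 27.1 CPM, then 37.1, 30.9 and 38.8 CPM, then 71.3, 57.5 and 56.0 CPM. *CDK15*, a little-studied kinase of the cyclin-dependent family, was at 8.40 to 9.49 CPM, then 10.2 to 12.04 CPM, then 19.7 to 20.98 CPM. *LIMA1*, an actin filament stabilizer, and *SSR1*, a subunit of the translocon-associated complex of the endoplasmic reticulum, were among the 6 most abundant members, at 299 ± 4.11 and 274.9 ± 11.8 CPM (SD, n = 3) in shTRPV4 cells. Among regulators, *LEF1*, a transcription factor of Wnt signalling, had an overall ratio of 1.87, *HDAC9*, a histone deacetylase, 1.64, and *PPARGC1B*, a coactivator of mitochondrial genes, 2.01. By edgeR, *LEF1* was not called at the knockdown step (adjusted p = 0.1005), nor *PPARGC1B* at the viscosity step (adjusted p = 0.134). *ALDH1A3*, which makes retinoic acid, had 1.72, *MT1A*, a metallothionein, 2.20, and *TAP2*, a peptide transporter of antigen presentation, 1.58.

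At a ratio of 1.5 at each step, 4 members remained. These were *IL24*, *BMPER*, *SLC7A5* and *MIR17HG*. *MIR17HG* is the host transcript of the miR-17-92 cluster, a group of microRNAs known as a MYC target and an oncogene in lymphoma. It was at 0.411, 0.403 and 0.367 CPM in SC cells at 0.77 cP, at 0.554, 0.780 and 0.875 CPM at 8 cP, and at 1.35, 1.67 and 1.19 CPM in shTRPV4 cells. These are low levels, and the libraries measured the polyadenylated host transcript and not the mature microRNAs. The host spans chr13:91347686-91397592 on the plus strand. The mature guide sequences it holds are shown from RefSeq (GRCh38.p14) because they fall into 4 seed families; capitals mark the seed, bases 2 to 8.
hsa-miR-17-5p: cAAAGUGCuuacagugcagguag
hsa-miR-20a-5p: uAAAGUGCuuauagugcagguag
hsa-miR-18a-5p: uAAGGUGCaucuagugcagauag
hsa-miR-19a-3p: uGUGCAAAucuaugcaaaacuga
hsa-miR-19b-3p: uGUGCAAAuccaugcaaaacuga
hsa-miR-92a-3p: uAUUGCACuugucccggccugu
The pair miR-17-5p and miR-20a-5p share one seed and the pair miR-19a-3p and miR-19b-3p another, while miR-18a-5p and miR-92a-3p each have their own.

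Non-coding RNAs were a visible part of the set. By GENCODE 44 annotation, 132 members were protein-coding, 87.4% against 89.6% of genes at or above the minimum, and 16 were long non-coding RNAs, 10.6% against 5.64%. Besides *MIR17HG* these included *VIPR1-AS1*, *PRKCQ-AS1*, *EMSLR* and *CT62*, and most were below 6 CPM in shTRPV4 cells. Members were spread unevenly over the chromosomes, with 20 on chromosome 2 (2.25 for every 100 genes at or above the minimum) and 7 on chromosome 18 (3.74 for every 100), against 1.16 over the genome. Chromosome 19 held 3 (0.326 for every 100), chromosome 20 held 1 (0.279 for every 100) and chromosome 22 held none. The unevenness was not tested.

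In 4 cases a member was next to another member in the order of genes at or above the minimum. *IL24* (chr1:206897443-206904139, plus strand) and *FCMR* (chr1:206903317-206923247, minus strand) overlap on opposite strands. *FCMR*, an Fc receptor for immunoglobulin M, was at 1.93, 1.97 and 2.03 CPM, then 2.59, 2.37 and 3.26 CPM, then 5.10, 5.10 and 4.41 CPM. *VIPR1* and *VIPR1-AS1* overlap in the same way on chromosome 3, as do *JPH1*, a junction protein of calcium stores, and *GDAP1*, a mitochondrial protein, on chromosome 8. The libraries were strand-specific but the counting option for strand is not given in the sources used here, so reads of overlapping genes on opposite strands may not have been told apart. *ADGRF5* and *ADGRF1*, both on the minus strand of chromosome 6, lie 42764 bases apart and share no exon. In all, 66 members overlap an exon of another gene on the opposite strand, 31 overlap one on their own strand, and 68 overlap none. *UCHL3*, *DDX47*, *RPS10*, *SCG5* and *GCSH* belong to the 31, and their counts are uncertain. *UCHL3*, a ubiquitin hydrolase, had an overall ratio of 2.92 from 1.91 to 2.34 CPM in SC cells at 0.77 cP.

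Promoters were compared with RefSeq windows of 250 bases before to 50 after the start (GRCh38.p14), which matched 118 of the 151 genes with 171 windows. The E-box CACGTG, a palindrome bound by MYC and related factors, was in 11.1% of the members' windows, 9.30% of those of genes at or above the minimum, 7.26% of all windows, and 45.7% of the windows of the ribosome biogenesis list. The share of the members was near that of the genes at or above the minimum. In the ribosome group of members, 4 of 14 windows held it (28.6%), a small number. Counted on both strands, the share among members and among genes at or above the minimum was 64.9% and 66.7% for the GC box GGGCGG, 29.8% and 34.6% for CCAAT, 7.60% and 5.995% for TATAAA, 5.26% and 5.27% for TGANTCA, 2.34% and 2.86% for TGACGTCA, 11.1% and 11.5% for GGAATG, 53.8% and 48.7% for GCGTG, 16.96% and 14.5% for TGACNNNGC, 9.94% and 6.23% for TTCNNNGAA, and 5.26% and 2.94% for the interferon-stimulated response element. A match describes the letters of the window and not a bound site. The median GC content was 65.0% in both sets.

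Stretches of 40 bases upstream of the start are shown for 4 of the members of the amino acid, nucleotide and ribosome groups that hold the E-box, which is in capitals. *SLC38A5*, *UTP20*, *PAK1IP1* and *DDX31* also hold it in their windows and are not shown. In all, 17 members hold the E-box, and those outside these groups are not shown either. Each stretch is given on the strand of the gene.
SLC7A5 (chr16:87869615-87869654, minus strand): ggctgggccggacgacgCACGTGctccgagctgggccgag
AIMP2 (chr7:6009473-6009512, plus strand): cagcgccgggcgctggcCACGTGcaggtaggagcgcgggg
PPAT (chr4:56435775-56435814, minus strand): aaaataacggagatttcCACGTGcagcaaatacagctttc
CCDC86 (chr11:60842071-60842110, plus strand): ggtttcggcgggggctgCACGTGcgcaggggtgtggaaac
All 4 lie before the annotated start.

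Within each group, the members varied together from sample to sample. In SC cells at 0.77 cP, 115 of the 151 genes were highest in replicate 3, which is 76.2% against 39.2% of all genes at or above the minimum. In SC cells at 8 cP, 118 of 151 (78.2%, against 36.6%) were highest in replicate 3, and in shTRPV4 cells 118 of 151 (78.2%, against 45.8%) were highest in replicate 1. All 3 held for 82 members, 54.3% against 16.5%. The rule did not name an order of replicates, but every replicate entered the means and the overlap condition that chose the genes, so the shared order is not independent of the choice. Without shTRPV4 replicate 1 the rule kept 105 of the 151 genes, without SC replicate 3 at 8 cP it kept 115, and without SC replicate 3 at 0.77 cP it kept 148. Replicate 3 at 0.77 cP had the highest total of its group (103518036 counts), whereas replicate 3 of SC cells at 8 cP had the lowest (91437674) and shTRPV4 replicate 1 lay between the others of its group (89845308). The part of these differences between samples in the result was not tested. The median coefficient of variation of the members was 8.23%, 6.496% and 7.73% in the 3 groups, against 5.13%, 4.25% and 5.41% over all genes at or above the minimum. The members were also lower in level, with medians of 10.7, 13.9 and 19.1 CPM in the 3 groups against 28.9, 29.2 and 29.8 CPM. The sets were not matched for level.

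**Figure D5:**
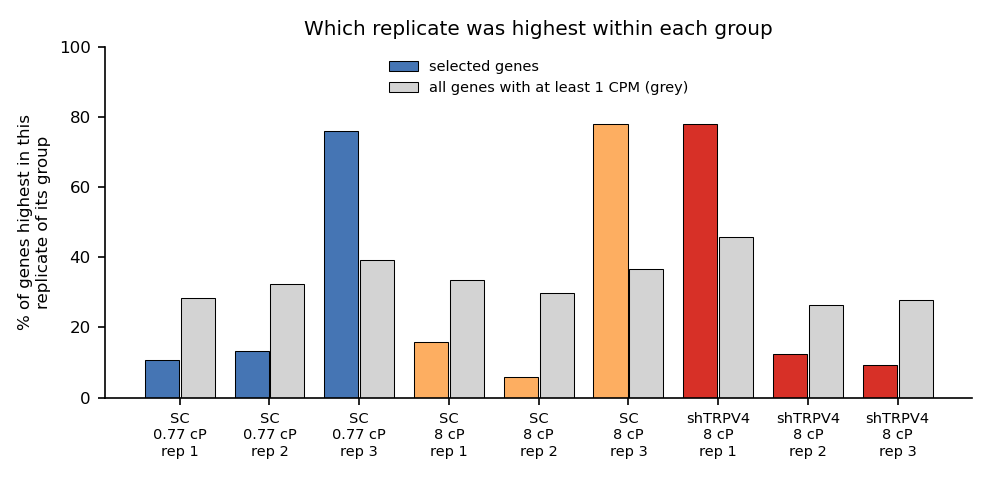
Share of genes (%) that were highest in each replicate of its own group, for the 151 selected genes (coloured bars) and the 13048 genes with at least 1 CPM in shTRPV4 cells (grey bars). SC 0.77 cP replicate 3, SC 8 cP replicate 3 and shTRPV4 replicate 1 each hold over 76% of the selected genes.

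The set has soft edges. Just inside the viscosity ratio lay *HDAC9*, *QRSL1* and *ARHGAP18* at 1.201 to 1.202, and just outside lay *KITLG*, *MICALL1* and *HSPD1* at 1.198 to 1.1997. At the knockdown ratio, *TAP2*, *DDX31* and *PPAT* lay inside at 1.201 to 1.202 and *FARSB*, *POLQ* and *POLR2D* outside at 1.199 to 1.1997. *VIPR1-AS1*, ENSG00000263826 and *DDX47* were nearest the minimum level from above, at 1.21 to 1.29 CPM, and the nearest genes below it, among those meeting both ratios, were ENSG00000258759, *PRSS35* and ENSG00000279227 at 0.635 to 0.710 CPM. With TMM-scaled library sizes, whose factors were 1.003 to 1.020 in shTRPV4 cells and 0.992 to 0.996 in SC cells, 120 of the 151 genes met the rule. The genes that no longer met it included 4 of the 15 in the ribosome group (*DKC1*, *NIP7*, *RRP15* and *DDX31*) and 4 of the 7 in the RNA processing and transport group (*RPP25*, *RPP40*, *XPO5* and *PNPT1*).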

How the data were processed

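Poly(A) RNA-seq counts of MDA-MB-231 cells were analysed in 3 groups of 3 samples. The authors aligned strand-specific libraries to GRCh38.p13 with HISAT2 2.2.1 and counted exon reads for Ensembl 104 genes with HTSeq 0.13.5, and the deposited files hold these raw counts. The strand option is not given in the sources used here. CPM were computed on file totals. Tests used edgeR 4.0.16 (quasi-likelihood, TMM, filterByExpr, 1 coefficient for each group, all 9 samples, Benjamini-Hochberg, threshold 0.05). The fit was also run on simulated counts drawn independently with its own estimates of spread. Such counts hold no shifts shared by genes within a sample, so they cannot check for them. Alternatives were DESeq2, other scalings and filters, the 6 samples of a comparison, a replicate block, other rule settings, and leaving out each sample. Positions and exon overlaps were taken from GENCODE 44, sequences from RefSeq tables. Named genes were the members with the largest ratios, levels or steps (at least 5 CPM for ratios), up to 4 members of each gene list by overall ratio, those nearest the thresholds, adjacent members and *TRPV4*. Other genes are named for their role and were chosen after their values were seen. The members and lists were chosen with earlier results of these data known. 1 member is not reported here. Totals of 64571681 to 103518036 counts set the precision.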

Additional observations from a re-analysis of the deposited data

How the results depend on the processing

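Of the alternatives run, the rule's own settings moved the set most. A ratio of 1.5 gave 4 genes and a ratio of 1.1 gave 744, and leaving out one sample gave 109 to 229 genes, the lowest without shTRPV4 replicate 1 (105 of the 151 members kept) and the highest without SC replicate 3 at 0.77 cP. TMM scaling gave 120 genes and DESeq2 size factors 128, of which 120 were members. Members called higher at the viscosity step numbered 82 to 131 when one sample was left out, the lowest without SC replicate 1 at 0.77 cP, and at the knockdown step 87 to 131. The labels do not say whether the replicate numbers pair the samples. Deviations from the group means correlated at -0.0546 to 0.0904 for same-number samples and at -0.106 to 0.115 for samples of different number. These values do not settle whether a number marks a shared culture. With the replicate number as a block, 121 and 128 members were called at the viscosity and knockdown steps, against 126 and 130 without it. *TRPV4*, which did not pass the test between the SC groups (log2 difference -0.0087), lay between -0.33 and 0.27 when one sample was left out and was above 0 without SC replicate 3 at 0.77 cP (0.11), without SC replicate 3 at 8 cP and in DESeq2 (0.00016). The cause was not tested. Alternatives for the list counts and named genes were added after the data were seen. DESeq2, scaling, filters, the block and the 6-sample fits left the counts of members within 1.5 times. Low counts limited genes such as *IL24* and *MIR17HG*.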
